A study of Homo sapiens with 6 samples.

Results

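The 8 genes described here are 5 metallothionein genes (MT1E, MT1F, MT1G, MT1X and MT2A), the zinc-sensing transcription factor gene MTF1, and the zinc exporter genes SLC30A1 and SLC30A5. They were taken by name, and all 8 were found among the 62700 Ensembl gene IDs of the table through their symbols. RNA was sequenced from A549, a cell line grown from a human lung adenocarcinoma, in 3 libraries labelled sgH2AC19 and 3 labelled sgControl. The sgH2AC19 libraries come from cells given a guide RNA against H2AC19, a histone H2A gene, and are described as knockout derivatives, while the sgControl libraries are labelled WT and carry a control guide. Both groups were grown in RPMI-1640 with fetal bovine serum, no drug or metal treatment is named for either, and whether the edited cells were a single clone or a pool is not given in the sources used here. Expression is given as FPKM, the number of fragments assigned to a gene, scaled by its length and by the size of the library, and the one comparison of the design is sgH2AC19 against sgControl.

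Metallothioneins are small cysteine-rich proteins that bind zinc, copper and cadmium and so buffer free metal in the cytosol. When cytosolic zinc increases, MTF1 binds metal response elements in the promoters of metallothionein genes and of SLC30A1 and activates them. SLC30 proteins move zinc out of the cytosol, SLC30A1 across the plasma membrane and SLC30A5, paired with SLC30A6, into the secretory pathway, while SLC39 proteins bring zinc into the cytosol.

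The size of each library, worked back from the steps between low FPKM values, was 35681162 to 45738439 reads in the sgH2AC19 libraries and 36255807 to 40570759 reads in the sgControl libraries. H2AC19 (ENSG00000288859) was listed at 0 FPKM in all 6 libraries, so the targeted gene checks neither the knockout nor the labels. The first principal component of the genes tested held 53.7% of the variance and separated the groups. The second, with 18.2%, set sgH2AC19 replicate 3 apart, at -16 against 8.09 and 8.32 for sgH2AC19 replicates 1 and 2 among the libraries of its group. Of 6 epithelial markers 4 rose and 2 fell, where 12.0% of all genes tested rose and 11.0% fell, and the number called was 5 without sgH2AC19 replicate 3, 4 without sgH2AC19 replicate 1 or sgControl replicate 1, and 3 without sgControl replicate 2 or 3. Of these markers KRT8 and KRT18 were abundant, with 290 to 316 and 409 to 415 FPKM in sgH2AC19 and 220.2 to 245 and 298 to 306 FPKM in sgControl. Endothelial markers reached at most 0.836 FPKM. The summed level of 7 leukocyte markers was 2.96 to 4.32 FPKM in sgH2AC19 and 2.70 to 3.11 FPKM in sgControl, mostly CD14 (2.60 ± 0.516 FPKM in sgH2AC19 and 1.94 ± 0.306 FPKM in sgControl, limma unadjusted p = 0.0477, adjusted p = 0.129) and ITGAM, while PTPRC, CD3E and LYZ reached at most 0.0286 FPKM. The summed level of 7 fibroblast markers was 6.51 to 7.10 FPKM in sgH2AC19 against 4.38 to 4.94 FPKM in sgControl, and of 3 tested COL1A1 and LUM rose. The number of fibroblast markers called was 0 without sgH2AC19 replicate 1 or 2, and 1 without sgH2AC19 replicate 3 or sgControl replicate 2 or 3. Over all genes tested, 2967 were called with all 6 libraries. Without sgH2AC19 replicates 1 to 3 in turn this number was 2135, 1965 and 3429. Without sgControl replicates 1 to 3 it was 1663, 1513 and 1632. The epithelial counts come from the same fits. COL1A1 was at 1.30 to 1.53 FPKM in sgH2AC19 and 0.585 to 0.711 FPKM in sgControl. It passed the filter of 1 FPKM in 3 libraries only through sgH2AC19, so leaving out any sgH2AC19 library removed it from the test. COL1A1 was called in the 10 alternative fits that tested it. All 10 kept every sgH2AC19 library, so they cannot show whether the call depends on one of them. The count of fibroblast markers that rose includes this gene, which the filter let in through the group where it is high. LUM was at 3.97 ± 0.434 FPKM in sgH2AC19 and 2.81 ± 0.2995 FPKM in sgControl, and THY1 at 1.18 ± 0.148 and 1.08 ± 0.104 FPKM. COL3A1 was at 0.0857 to 0.162 FPKM in sgH2AC19 and 0.0163 to 0.0412 FPKM in sgControl. PDGFRB, DCN and COL1A2 reached at most 0.102, 0.0391 and 0.00518 FPKM. In bulk RNA such as this, fewer cells of a type and less RNA per cell cannot be told apart. The part of these marker lists in the zinc results was not tested. Nothing in the labels says that libraries of a group were separate cultures, and the spread behind every p-value may therefore be technical.

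The exporter gene SLC30A1 rose 1.67-fold in sgH2AC19 cells and its regulator MTF1 1.36-fold, MT1F rose 1.27-fold at a low level, and the abundant metallothionein genes MT2A and MT1X as well as SLC30A5 were not called. Of the 8 genes, MT1E and MT1G were listed at 0 FPKM throughout and were not tested, and the other 6 were at 1 FPKM or more in every library. Among these 6, 3 rose and 0 fell by limma on log2(FPKM + 1) with a Benjamini-Hochberg adjusted p below 0.05. Across all 12871 genes tested 23.1% were called in this fit, 12.0% up and 11.0% down. At an unadjusted p below 0.05, and with voom on recovered reads, 0 members fell as well. With voom 1722 of 12861 genes fell, and the share of all genes at an unadjusted p below 0.05 was not counted. The groups did not overlap for the same 3 genes, SLC30A1, MTF1 and MT1F, and for 43.2% of all genes tested. The ratios are of mean FPKM, while log2 fold changes below are of log2(FPKM + 1), a scale that makes the change of a low gene look smaller.

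**Figure D1:**
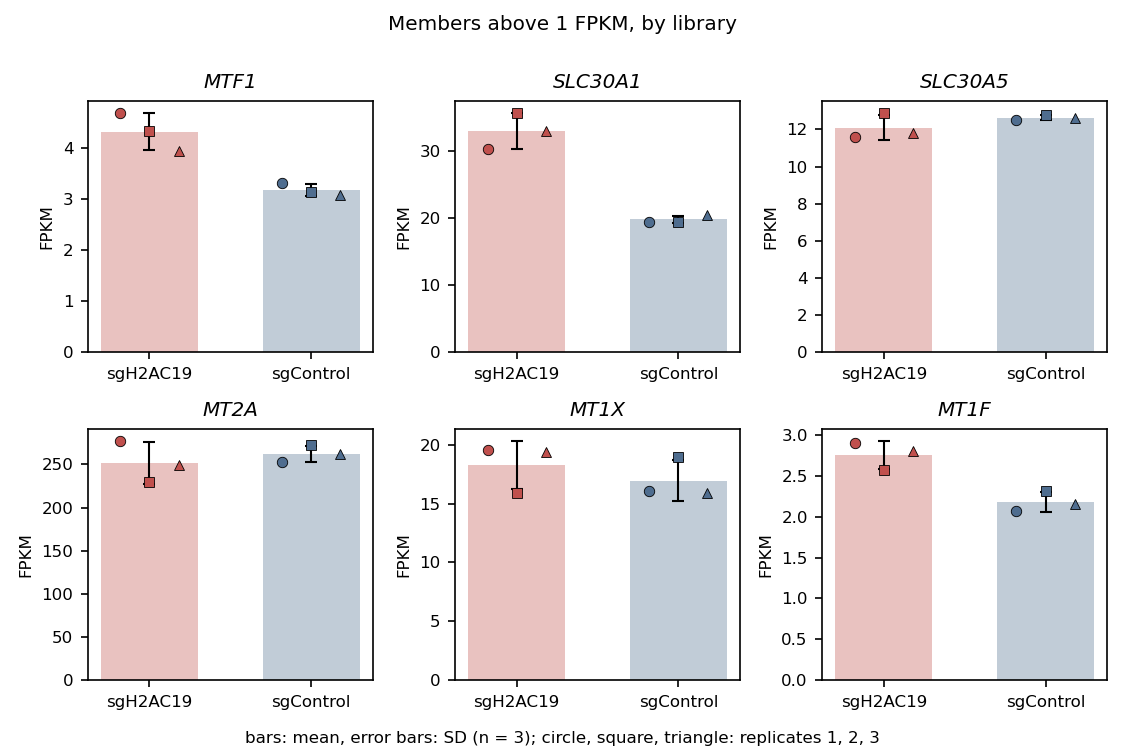
FPKM of the 6 genes that were detected, with sgH2AC19 left of sgControl in each panel. Bars are means with SD of 3 libraries and the symbols are single libraries (circle, square and triangle for replicates 1, 2 and 3). The 3 sgH2AC19 points lie above all sgControl points for MTF1, SLC30A1 and MT1F and overlap them for SLC30A5, MT2A and MT1X.

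MTF1 (ENSG00000188786) encodes the zinc-finger factor that senses zinc. It lies on chromosome 1 from 37809567 to 37859620 on the minus strand (GENCODE 29, GRCh38). MTF1 had 4.69, 4.34 and 3.95 FPKM in sgH2AC19 replicates 1 to 3, against 3.32, 3.16 and 3.08 FPKM in sgControl replicates 1 to 3. All 3 sgH2AC19 libraries were above all sgControl libraries, and the lowest sgH2AC19 value was that of replicate 3. Mean levels were 4.33 ± 0.368 FPKM in sgH2AC19 and 3.18 ± 0.122 FPKM in sgControl (SD, n = 3 each). The log2 fold change was 0.35 (SE 0.0653, 95% interval 0.19 to 0.50, limma adjusted p = 0.0109), and 6.55% of all genes tested had a higher one. Without sgH2AC19 replicate 3 it was 0.40 (adjusted p = 0.00511). Each MTF1 value rests on 961 to 1714 reads, so counting error was at most 3.23% of a value, and the spread among libraries was 8.51% of the mean in sgH2AC19 and 3.83% in sgControl.

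SLC30A1 (ENSG00000170385), also named ZnT1, is the zinc exporter of the plasma membrane and was the member that changed most. It lies on chromosome 1 from 211571568 to 211578742 on the minus strand in GENCODE 29. SLC30A1 had 30.4, 35.7 and 32.95 FPKM in sgH2AC19 replicates 1 to 3, against 19.4, 19.5 and 20.5 FPKM in sgControl replicates 1 to 3. The lowest sgH2AC19 library was thus well above the highest sgControl library. Mean levels were 33.0 ± 2.655 FPKM in sgH2AC19 and 19.8 ± 0.594 FPKM in sgControl (SD, n = 3 each). The log2 fold change was 0.71 (SE 0.0632, 95% interval 0.56 to 0.86, limma adjusted p = 0.000926), and SLC30A1 ranked 102 of 12871 genes by log2 fold change from the top. It was 0.71 without sgH2AC19 replicate 3 as well, and 0.65 to 0.76 over the fits that left out any one library. The values rest on 4149 to 8191 recovered reads per library.

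The promoters of SLC30A1 and of the 2 most abundant metallothionein genes are shown because they place a called and 2 uncalled genes side by side. RefSeq promoter windows (GRCh38.p14, 250 bases before to 50 after the annotated start, 5′ to 3′ on the gene's strand) were found for 5 of the 8 members, MT1X, MT2A, MTF1, SLC30A1 and SLC30A5. Capitals mark the metal response element core, searched as TGCACNC and TGCGCNC on both strands. A match is a description of the letters and not of binding. RefSeq and GENCODE 29 place the starts of these genes at different bases, and the windows follow RefSeq.

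SLC30A1 promoter, chr1:211579112-211579411, minus strand: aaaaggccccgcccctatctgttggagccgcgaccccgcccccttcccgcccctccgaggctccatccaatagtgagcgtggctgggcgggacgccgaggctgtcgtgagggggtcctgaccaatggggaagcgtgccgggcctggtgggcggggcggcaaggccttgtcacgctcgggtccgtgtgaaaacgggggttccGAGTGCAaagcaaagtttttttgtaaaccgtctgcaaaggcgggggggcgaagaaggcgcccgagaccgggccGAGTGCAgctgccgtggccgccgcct

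MT2A promoter, chr16:56608334-56608633, plus strand: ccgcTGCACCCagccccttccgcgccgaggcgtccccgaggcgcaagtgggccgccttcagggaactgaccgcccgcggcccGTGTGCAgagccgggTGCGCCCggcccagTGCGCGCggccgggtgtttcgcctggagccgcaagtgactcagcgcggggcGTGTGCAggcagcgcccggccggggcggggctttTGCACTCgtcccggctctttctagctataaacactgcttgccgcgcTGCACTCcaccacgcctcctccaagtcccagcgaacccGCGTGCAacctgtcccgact

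MT1X promoter, chr16:56682220-56682519, plus strand: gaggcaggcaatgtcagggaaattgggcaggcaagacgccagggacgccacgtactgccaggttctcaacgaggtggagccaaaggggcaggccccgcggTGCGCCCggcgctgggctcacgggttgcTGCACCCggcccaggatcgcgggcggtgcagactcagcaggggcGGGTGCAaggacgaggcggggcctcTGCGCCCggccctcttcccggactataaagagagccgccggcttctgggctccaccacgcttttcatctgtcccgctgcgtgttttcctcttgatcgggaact

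The core occurred 2 times in the SLC30A1 window, 8 times in the MT2A window and 4 times in the MT1X window, with no 2 matches overlapping. It occurred 0 times in the windows of MTF1 and SLC30A5. Of 35116 promoter windows of the same length 29.6% held at least 1 match, 8.60% at least 2, 0.601% at least 4 and 0.0199% at least 8. All 3 genes shown above therefore hold the core, and of them only SLC30A1 was called in sgH2AC19.

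MT2A (ENSG00000125148, plus strand of chromosome 16, 56608199 to 56609497) held most of the metallothionein transcript. MT2A had 278, 229 and 249 FPKM in sgH2AC19 replicates 1 to 3, against 253, 272 and 262 FPKM in sgControl replicates 1 to 3. The sgH2AC19 libraries held both the highest and the lowest of the 6 values, so the groups overlap. The log2 fold change was -0.06 (SE 0.0713, 95% interval -0.23 to 0.11, limma adjusted p = 0.578), and it was 0.006 without sgH2AC19 replicate 2. With 7475 to 11602 reads per library, counting error was at most 1.16% of a value, against a spread of 9.63% in sgH2AC19 and 3.69% in sgControl.

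MT1X (ENSG00000187193, plus strand of chromosome 16, 56682424 to 56684196) was the second most abundant metallothionein gene. It had 19.6, 15.9 and 19.4 FPKM in sgH2AC19 replicates 1 to 3, against 16.1, 18.96 and 15.9 FPKM in sgControl replicates 1 to 3. A low library in sgH2AC19 and a high one in sgControl made the groups overlap. The log2 fold change was 0.10 (SE 0.0971, 95% interval -0.13 to 0.33, limma adjusted p = 0.483). Its exons share 321 bases with AC026461.1, a transcript on the same strand that was listed at 0 in all 6 libraries. The upper ends of the MT2A and MT1X intervals lie below the log2 fold change of SLC30A1, though the difference between genes was not tested.

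MT1F (ENSG00000198417, plus strand of chromosome 16, 56657694 to 56660698) was present at a low level. It had 2.90, 2.57 and 2.82 FPKM in sgH2AC19 replicates 1 to 3, against 2.07, 2.32 and 2.16 FPKM in sgControl replicates 1 to 3. The groups did not overlap, but the gap between the lowest sgH2AC19 and the highest sgControl library was small. The log2 fold change was 0.24 (SE 0.0641, 95% interval 0.09 to 0.39, limma adjusted p = 0.0342), and 24.6% of all genes tested changed by a larger amount. The values rest on 139 to 246 reads, and exact Poisson intervals of single libraries, which cover counting error only, overlap, with 2.20 to 2.99 FPKM for sgH2AC19 replicate 2 and 1.99 to 2.70 FPKM for sgControl replicate 2. The call was lost without sgH2AC19 replicate 1 (adjusted p = 0.0941) or 3 (0.0576), without sgControl replicate 1 (0.113), 2 (0.0616) or 3 (0.101), with voom on recovered reads (0.082), with a replicate block (0.075) and with the filter widened to every gene above 0 FPKM (0.105).

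MT1E (ENSG00000169715, chromosome 16 from 56625475 to 56627112, plus strand) and MT1G (ENSG00000125144, chromosome 16 from 56666731 to 56668065, minus strand) were listed at 0 FPKM in all 6 libraries. At these depths and the exon lengths of GENCODE 29, 3 reads would have given 0.0623 to 0.0799 FPKM for MT1E and 0.0875 to 0.112 FPKM for MT1G. A listed 0 may also stand for reads that were not assigned to the gene. The ubiquitous zinc importer gene SLC39A1, which shares 2061 of its 3388 exon bases with the gene AL358472.7, was at 0.140 to 0.174 FPKM in sgH2AC19 and 0.131 to 0.179 FPKM in sgControl, while AL358472.7 was at 0 in all 6 libraries. MT1E and MT1G overlap no other gene in GENCODE 29, and whether reads of either were lost in counting was not tested. Metallothionein genes are close copies of each other, so the values of single members are uncertain where reads could map to more than one.

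Summed over the 5 metallothionein members the level was 300.0, 248 and 272 FPKM in sgH2AC19 replicates 1 to 3, against 271, 293 and 280.0 FPKM in sgControl replicates 1 to 3. These means of 273 ± 26.2 FPKM in sgH2AC19 and 281 ± 11.3 FPKM in sgControl (SD, n = 3 each) differ by less than the SD of either group. The difference of -8.21 FPKM, sgH2AC19 minus sgControl, was -21.7 FPKM without sgH2AC19 replicate 1 and 4.49 FPKM without sgH2AC19 replicate 2, so single libraries set its size and sign. MT2A made up 91.8% to 92.5% of the sum in sgH2AC19 and 92.7% to 93.6% in sgControl. MT1F made up 0.968% to 1.04% in sgH2AC19 and 0.765% to 0.792% in sgControl. Levels per length depend on the length used, and the length recovered for MT1X was 1727 bases, while its principal transcript in GENCODE 29 has 450. For MT2A they were 914 and 786 bases.

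The metallothionein genes varied together within sgH2AC19. MT2A, MT1X, MT1F and MT1A were each highest in replicate 1 and lowest in replicate 2, which were also the deepest and the shallowest of these libraries. SLC30A1 ran the other way, lowest in replicate 1 and highest in replicate 2. In sgControl, MT2A, MT1X and MT1F were highest in replicate 2, which had neither the highest nor the lowest depth, while MT1A was highest in replicate 3, the deepest of that group. SLC30A1 stood at 10.95, 15.6 and 13.2 percent of the FPKM of MT2A in sgH2AC19 replicates 1 to 3, against 7.69, 7.17 and 7.82 in sgControl replicates 1 to 3. The part of depth in this pattern was not tested.

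Of the 11 other metallothionein genes and pseudogenes listed, only MT1A passed the filter of 1 FPKM in 3 libraries, and 8 were at 0 in all 6. MT1A had 4.25, 3.54 and 3.72 FPKM in sgH2AC19 replicates 1 to 3, against 4.04, 4.09 and 6.16 FPKM in sgControl replicates 1 to 3. It was not called (log2 fold change -0.24, SE 0.139, limma adjusted p = 0.26), and rests on 50 to 99 reads. Without sgControl replicate 3 the log2 fold change was -0.07.

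Metallothionein pseudogenes outside this list were looked up after their values were seen, and 2 of 5 passed the filter. MT1XP1 (ENSG00000233929, minus strand of chromosome 1, 16241213 to 16241398), a processed pseudogene of MT1X, had 1.76, 2.26 and 2.27 FPKM in sgH2AC19 replicates 1 to 3, against 4.597, 4.49 and 2.65 FPKM in sgControl replicates 1 to 3. All sgH2AC19 libraries were below all sgControl libraries, of which replicate 3 was the lowest. It was called down (log2 fold change -0.64, SE 0.168, limma adjusted p = 0.0323) on only 15 to 33 recovered reads per library, and in 7 of 13 alternative fits. The call was lost without sgH2AC19 replicate 1 (adjusted p = 0.0907) or 2 (0.0675), without sgControl replicate 1 (0.0956) or 2 (0.105) and with voom (0.0971), as well as with the wider filter (0.133). MT2P1 (ENSG00000162840), a processed pseudogene of MT2A on chromosome 4, had 2.75, 0.919 and 3.31 FPKM in sgH2AC19, against 4.37, 4.70 and 2.29 FPKM in sgControl, and was not called (-0.57, adjusted p = 0.252). Reads of such copies and of their parent genes can be exchanged in mapping, and the part of this in either value was not tested.

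**Figure D2:**
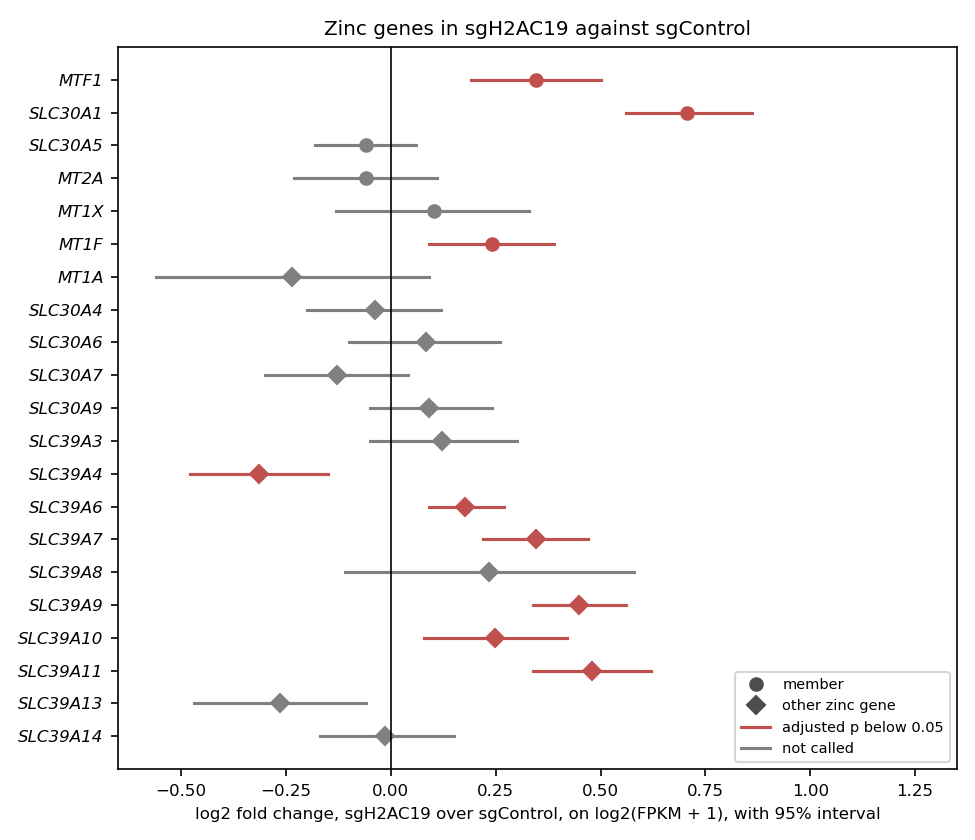
Log2 fold change of sgH2AC19 over sgControl on the log2(FPKM + 1) scale, with its 95% interval, for the members (circles) and the other listed zinc genes that passed the filter (diamonds). Called genes, by adjusted p, are red, while the intervals are not adjusted for the number of genes tested. The interval of SLC39A13, -0.47 to -0.06, thus leaves out 0 though the gene was not called. SLC30A1 at 0.71 lies farthest to the right, MT2A, MT1X and SLC30A5 have intervals that include 0, and of the SLC39 genes 5 called ones lie above 0 and 1 called one, SLC39A4, below.

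SLC30A5 (ENSG00000145740, plus strand of chromosome 5, 69093646 to 69131069) loads zinc into the early secretory pathway. It had 11.6, 12.9 and 11.8 FPKM in sgH2AC19 replicates 1 to 3, against 12.5, 12.8 and 12.6 FPKM in sgControl replicates 1 to 3. The groups overlap through sgH2AC19 replicate 2. The log2 fold change was -0.06 (SE 0.0509, 95% interval -0.18 to 0.06, limma adjusted p = 0.439). In GENCODE 29 its exons share 532 bases with the antisense gene AC010273.1, which was at 0.236 to 0.245 FPKM in sgH2AC19 and 0.177 to 0.242 FPKM in sgControl. Whether strand was used in counting is not given in the sources used here.

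Among the 8 other SLC30 genes 4 passed the filter and 0 were called by limma, in a fit where 23.1% of all genes tested were called. With voom 0 were called too, against 3535 of 12861 genes. The number at an unadjusted p below 0.05 was also 0, but the share of all genes at that threshold was not counted. SLC30A6, the partner of SLC30A5, had 15.7 ± 1.79 FPKM in sgH2AC19 and 14.7 ± 0.319 FPKM in sgControl (SD, n = 3 each). Log2 fold changes were 0.08 for SLC30A6, 0.09 for SLC30A9, -0.13 for SLC30A7, a transporter of the Golgi, and -0.04 for SLC30A4. SLC30A1 made up 38.8%, 39.8% and 41.1% of the summed FPKM of the 10 SLC30 genes in sgH2AC19 replicates 1 to 3, against 28.1%, 28.2% and 29.8% in sgControl replicates 1 to 3. The sum itself was 78.4, 89.7 and 80.1 FPKM in sgH2AC19, against 69.0, 69.3 and 68.8 FPKM in sgControl. The sgH2AC19 sums were all above the sgControl sums, with SLC30A1 as the only called gene among the 6 tested.

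**Figure D3:**
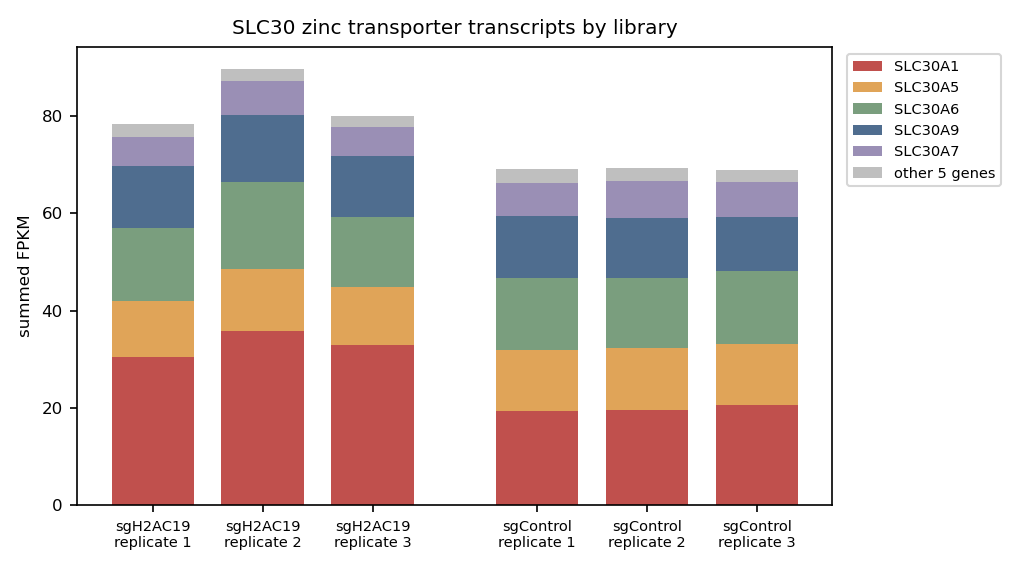
Summed FPKM of the 10 SLC30 zinc transporter genes in each library, sgH2AC19 on the left and sgControl on the right, stacked by gene. The red part at the base is SLC30A1, 30.4 to 35.7 FPKM in sgH2AC19 and 19.4 to 20.5 FPKM in sgControl. The sums are 78.4 to 89.7 FPKM in sgH2AC19 and 68.8 to 69.3 FPKM in sgControl.

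The SLC39 importers bring zinc into the cytosol, opposite to the exporters. Of 14 listed, 10 passed the filter, and 5 rose, 1 fell and 4 were not called, with a median log2 fold change of 0.20 against -0.005 over all genes tested. Among all genes tested 12.0% were called up and 11.0% down. The number of SLC39 genes called was 3 without sgControl replicate 2 or 3 and 4 without sgControl replicate 1. Over all genes tested the number called was also lower in these fits. It was 1513, 1632 and 1663 without sgControl replicate 2, 3 and 1, against 2967 with all 6 libraries. Whether calls differ in frequency between SLC39 and SLC30 genes was not tested.

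The 3 SLC39 genes with the smallest adjusted p all rose. SLC39A9, which is found in the Golgi and at the cell surface, had 23.4, 23.4 and 23.6 FPKM in sgH2AC19, against 16.3, 16.7 and 17.8 FPKM in sgControl (log2 fold change 0.45, SE 0.0457, limma adjusted p = 0.00136). SLC39A11, also of the Golgi, had 7.59, 7.16 and 7.20 FPKM in sgH2AC19, against 5.27, 4.60 and 5.04 FPKM in sgControl (0.48, SE 0.0578, adjusted p = 0.00222). SLC39A7, which releases zinc from the endoplasmic reticulum, had 29.6, 28.9 and 26.1 FPKM in sgH2AC19, against 21.9, 21.8 and 22.2 FPKM in sgControl (0.35, SE 0.0549, adjusted p = 0.00592). In all 3 genes every sgH2AC19 library was above every sgControl library, and each kept its call in the 13 alternative fits. Genes picked by a small adjusted p tend to separate in this way, and the groups did not overlap for 43.2% of all genes tested.

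SLC39A6 and SLC39A10, which form a zinc importer at the plasma membrane, rose by smaller amounts. SLC39A6 had 30.9, 31.1 and 31.6 FPKM in sgH2AC19, against 27.2, 27.8 and 27.6 FPKM in sgControl (log2 fold change 0.18, limma adjusted p = 0.0171). It was not called without sgControl replicate 1 (adjusted p = 0.0736), 2 (0.0556) or 3 (0.0652). SLC39A10 had 20.3, 19.8 and 23.96 FPKM in sgH2AC19, against 17.7, 17.3 and 18.2 FPKM in sgControl (0.25, adjusted p = 0.0483). The highest value was that of sgH2AC19 replicate 3, and without it the log2 fold change was 0.17 (adjusted p = 0.0294). The call was lost in 7 of 13 alternative fits, with adjusted p up to 0.149.

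SLC39A4, the importer best known from dietary zinc uptake in the intestine, fell. It had 1.22, 1.18 and 1.13 FPKM in sgH2AC19, against 1.58, 1.81 and 1.74 FPKM in sgControl (log2 fold change -0.32, SE 0.0694, limma adjusted p = 0.0187). It was not called if sgControl replicate 2 (adjusted p = 0.0693) or 3 (0.0665) was left out, nor with the filter widened to every gene above 0 FPKM (0.0622). SLC39A13 was at 3.81 ± 0.424 FPKM in sgH2AC19 and 4.77 ± 0.479 FPKM in sgControl (SD, n = 3 each) and was not called (-0.27, adjusted p = 0.0679), though it was with voom (0.0417) and with a replicate block (0.036). SLC39A8, which also carries cadmium and manganese, had 12.8, 12.8 and 8.36 FPKM in sgH2AC19, against 9.60, 8.75 and 9.62 FPKM in sgControl. It was not called (0.23, adjusted p = 0.29), but without sgH2AC19 replicate 3 it was called up (0.42, adjusted p = 0.00319). SLC39A14, the most abundant importer gene here, was at 49.8 ± 4.01 FPKM in sgH2AC19 and 50.2 ± 2.55 FPKM in sgControl (log2 fold change -0.01, adjusted p = 0.914), and SLC39A3 at 0.12 (adjusted p = 0.278).

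**Figure D4:**
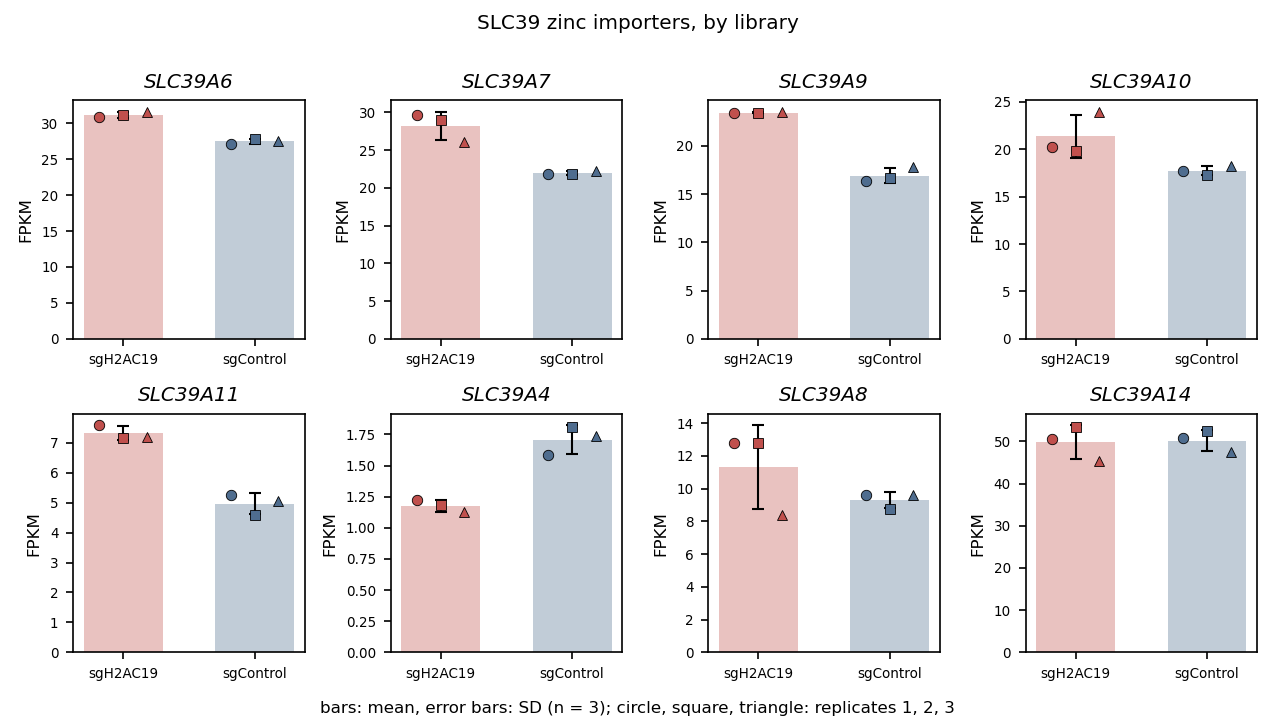
FPKM of 8 SLC39 importer genes, with sgH2AC19 left of sgControl in each panel. Bars are means with SD of 3 libraries and the symbols are single libraries. SLC39A6, SLC39A7, SLC39A9, SLC39A10 and SLC39A11 have all sgH2AC19 points above sgControl, SLC39A4 has them below, and SLC39A8 has sgH2AC19 replicate 3 (triangle) at 8.36 FPKM, apart from replicates 1 and 2.

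Genes induced by metal and proteotoxic stress were tested as a list beside the zinc genes, since several metals that induce metallothioneins also induce them. Of 13 tested, 0 rose and 2 fell by limma, where 12.0% of all genes tested rose and 11.0% fell. The 2 were TXNRD1 (log2 fold change -0.30, adjusted p = 0.0185), a thioredoxin reductase, and DNAJB1 (-0.17, adjusted p = 0.0348), a chaperone partner of HSP70. At an unadjusted p below 0.05, 0 rose and 5 were lower, with HSPA1A, HSPA8 and HSPH1 beside these. The share of all genes at this looser threshold was not counted, so the 5 cannot be read as an excess. The median log2 fold change of the 13 stress genes was -0.13 against -0.005 over all genes tested. TXNRD1 was called in 10 and DNAJB1 in 6 of 13 alternative fits. The number of stress genes called was 0 without sgControl replicate 1 or 2 and 1 without sgH2AC19 replicate 1. Over all genes tested these fits called 1663, 1513 and 2135, against 2967 with all 6 libraries.

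Set against all genes tested, 0.785% had a higher log2 fold change than SLC30A1, and 1.55% changed by a larger amount in either direction. For MTF1 12.5% changed by a larger amount. For MT2A and SLC30A5 this share was 74.2% and 74.9%, and for MT1X it was 58.8%. Both scalings tried left the median log2 fold change of all genes between -0.007 and -0.006, and none of the 36 genes refitted under them changed sign.

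**Figure D5:**
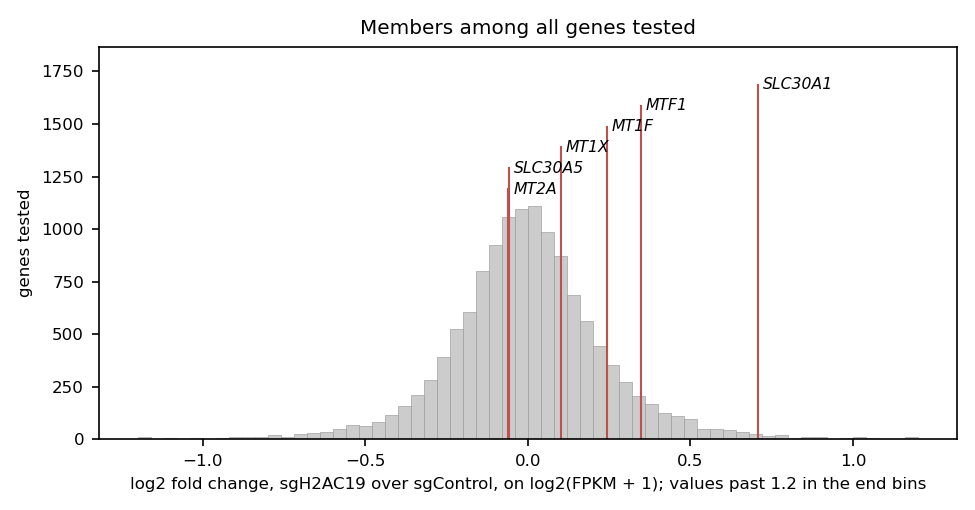
Histogram of log2 fold changes, sgH2AC19 over sgControl on the log2(FPKM + 1) scale, of the 12871 genes tested, with the 6 members tested drawn as red lines and changes past the ends of the axis counted in the end bins. MT2A and SLC30A5, both at -0.06, lie near the centre, and SLC30A1 at 0.71 lies in the right tail.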

How the data were processed

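RNA from 6 A549 libraries, 3 labelled sgH2AC19 and 3 labelled sgControl, was measured as FPKM per Ensembl gene ID, as deposited by the authors in 1 table with 0 columns left unused. Per the submitters' processing notes the builds named are GRCm38 and mm10, which are mouse builds, while all 62700 IDs matched human gene names. For aligner, counter and annotation: not given in the sources used here.

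The 12871 genes that reached 1 FPKM in 3 or more libraries were tested as log2(FPKM + 1) with limma 3.58.1 in R 4.3.3 (trend on mean level), with Benjamini-Hochberg adjustment over all of them and a threshold of 0.05. The procedure was also run on simulated data, drawn independently for each gene and library. Such data hold no effect shared by the genes of a library, so that run cannot show how the fit handles one. The 95% intervals use limma's moderated standard errors and are not adjusted for the number of genes tested. Recovered read totals come from the step between low FPKM values at GENCODE 29 exon lengths. With a tolerance of 0.01, 12861 of the genes tested gave whole reads, 3759 with their GENCODE length and the rest with the shortest length to do so. Read counts of single genes, and the intervals and 3-read floors made from them, therefore depend on that length and cover counting error only. The share of FPKM from mitochondrial genes was 29.6% to 32.5%.

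Promoter sequences are RefSeq's (GRCh38.p14), and coordinates of genes are those of GENCODE 29. The alternatives were a pseudocount of 0.1, a filter of any value above 0 FPKM, a filter on the mean (1 FPKM), 2 other scalings (upper-quartile and median-ratio), voom on recovered reads, a replicate block and leaving out each library in turn. The members and gene lists were chosen with earlier results of these data known. Named genes are the members, H2AC19, every listed zinc transporter and metallothionein gene that passed the filter, up to 4 called genes of each other list with the smallest adjusted p, and the 5 genes whose levels follow the metallothionein members most closely. MT1XP1, MT2P1, KRT8, KRT18, 3 further stress genes and the marker genes CD14, ITGAM, THY1 and those near 0 were named after their values were seen.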

Additional observations from a re-analysis of the deposited data

How the results depend on the processing

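The calls of SLC30A1 and MTF1 held in all 13 alternative fits, with log2 fold changes of 0.65 to 0.76 and 0.30 to 0.45. MT1F was called in 5 of 13. Over 36 named genes, 409 of 465 alternative values kept their direction and side of the threshold, 49 were no longer called, 3 became called and 4 changed sign. The number of genes called was 2967, against 1553 with every gene above 0 FPKM tested and 1513 to 3429 when 1 library was left out. The number of SLC39 genes called was 6, against 3 to 7 when 1 library was left out, with 3 without sgControl replicate 2 or 3. The sign changes all came with 1 library left out, where log2 fold changes ranged over -0.132 to 0.006 for MT2A, -0.003 to 0.136 for SLC30A6 and -0.063 to 0.050 for SLC39A14. A fit without 1 library has fewer samples by construction, and the wider filter adjusts over more genes, and other causes were not tested.

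With a replicate block 2729 genes were called, MT1F was not (limma adjusted p = 0.075) and SLC39A13 was (0.036). The labels give no meaning to the shared numbers, and the deviations of same-numbered libraries correlated at only 0.035 to 0.060, so the libraries share a number and not a known source. Each library correlated best with its own number. Deviations from a group mean cancel within the group, so correlations of both signs are built in, and a pairing was not tested. Among the metallothionein genes and pseudogenes tested, recovered reads per library were fewest for MT2P1 (6 to 34), MT1XP1 (15 to 33), MT1A (50 to 99) and MT1F (139 to 246).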

Other observations

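Genes beside the zinc genes were described from lists of the same kind. Of 14 copper handling genes 10 were tested, 0 rose and 1 fell by limma, against 12.0% and 11.0% of all genes tested. The 1 was ATOX1, the copper chaperone that feeds the secretory pathway, with 2.80, 3.15 and 2.94 FPKM in sgH2AC19 against 4.28, 3.82 and 3.68 FPKM in sgControl (log2 fold change -0.31, adjusted p = 0.0165, called in 9 of 13 alternative fits). At an unadjusted p below 0.05, 0 rose and 3 were lower, with SOD1 and STEAP3 beside ATOX1. Here too the share of all genes at the looser threshold was not counted, so the 3 cannot be read as an excess. The number of copper genes called was 0 without sgH2AC19 replicate 1 or sgControl replicate 1 or 2, and 2 without sgH2AC19 replicate 3. Over all genes tested these fits called 2135, 1663, 1513 and 3429, against 2967 with all 6 libraries. MT2A and MT1X are also induced by glucocorticoids, and of 11 glucocorticoid-induced genes 5 rose and 2 fell, where 12.0% of all genes tested rose and 11.0% fell. CEBPD (0.78, adjusted p = 0.00097), PER1 (0.48, adjusted p = 0.00167) and SCNN1A (0.61, adjusted p = 0.00804, and 0.49 without sgH2AC19 replicate 3) rose, and ZFP36 fell (-0.57, adjusted p = 0.00356), all in 13 of 13 alternative fits.

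Of 11 genes that neighbour the metallothionein cluster on chromosome 16, 7 were tested, with a median log2 fold change of 0.03. By limma 0 were called, against 23.1% of all genes tested. The number at an unadjusted p below 0.05 was also 0, but the share of all genes at that threshold was not counted. The genes whose levels followed the mean standardised level of MT2A, MT1X and MT1F most closely over the 6 libraries were AHCYL2 (Pearson r = 0.986), CIAO2A (0.962), MRPL24 (0.957), RETREG2 (0.956) and ULK1 (0.956). They were the highest of 6801 genes with a mean of at least 5 FPKM, the 6 points are libraries that differ in depth, and the values are a description.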
